A study of Mus musculus with 2 samples.

Results

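The genes described here encode glutamate receptors and the auxiliary subunits that bind them. They were chosen by name, not by any measured value, and all 33 of 33 were found among the 33696 genes listed for each library. They are the AMPA receptor subunits Gria1 to Gria4, 6 NMDA receptor subunits, 5 kainate receptor subunits, the delta receptor Grid1, 6 metabotropic receptors and 11 auxiliary subunits. Neuron subclasses, glia and vascular cells of mouse brain were compared for subunit make-up, and so were the study's treatments.

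The fluconazole library came from Shank3-/- mice that received fluconazole, a triazole antifungal, by mouth in their drinking water for 2 weeks. The vehicle library came from Shank3-/- mice on vehicle (MOCK) over the same time. Both libraries carry the Shank3 deletion, no wild-type library was analysed here, and the labels give neither the animals' age nor how many animals were pooled. The samples are labelled brain; the design text names prefrontal cortex and a combined single-cell and single-nucleus assay, while the protocol describes nuclei. There is 1 library per treatment, so no difference between treatments has a replicate check, and no p-value or test is given. All intervals are 95% intervals that cover counting error only.

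Glutamate carries most fast excitation in the cortex. AMPA receptors open briefly at the synapse, NMDA receptors admit calcium when glutamate and depolarisation coincide, and kainate receptors modulate transmission on both sides of the synapse. Metabotropic receptors signal through G proteins. TARPs, cornichons, Shisa and Neto proteins bind AMPA or kainate receptors and alter their traffic and gating. Shank3 is a postsynaptic scaffold that is linked to these receptors through other scaffold proteins.

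After filtering, 10610 fluconazole and 12892 vehicle barcodes remained, with a median of 5258 UMIs (counted molecules) with fluconazole and 4327 UMIs with vehicle. Each class name below stands for clusters that carry that cell type's markers, an "-like" class. A neuron subcluster that met too few markers is called "led by" the first marker-list gene among its top genes. That gene need not be its top gene and gives no cell type. Where no such gene was found, the subcluster is unnamed and counted only in its main class. GABAergic neurons numbered 296 fluconazole and 356 vehicle barcodes and glutamatergic neurons 1441 fluconazole and 1763 vehicle barcodes. Striatal-type spiny neurons numbered 173 fluconazole and 268 vehicle barcodes, astrocytes 656 fluconazole and 764 vehicle barcodes and microglia 2417 fluconazole and 3164 vehicle barcodes. Striatal-type spiny neurons and neuroblasts carried their markers although the design text names cortex. Glutamatergic neurons were deeper in the fluconazole library, with medians of 10735 UMIs with fluconazole and 7532 UMIs with vehicle. The libraries share 45 barcode sequences. Shank3 itself was still counted in both, at 53.6 CPM (counts per 1000000 UMIs) with fluconazole and 48.7 CPM with vehicle over all kept barcodes. The labels do not say which part of the gene is deleted, so these counts do not check the genotype. Levels are given as CPM, the UMIs of a gene scaled to the total UMIs of its class, and they are compared for 1 gene at a time because they are not scaled to transcript length. Fewer expressing cells and less RNA per cell cannot be told apart in a summed level.

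Of the 13 main classes, the one with the highest level was the same in both libraries for 30 of 33 genes. The highest class was striatal-type spiny neurons for 8 genes, glutamatergic neurons for 7, GABAergic neurons for 7, astrocytes for 3, oligodendrocyte precursors for 3 and neuroblasts for 2. Grin1, Grik2 and Grik3 had different highest classes in the 2 libraries. The lead over the next class was wide for some genes and narrow for others. Grin2c was 24.96-fold with fluconazole and 35.2-fold with vehicle above its next class, and Gria2 1.07-fold with fluconazole and 1.09-fold with vehicle. For 32 genes the highest class lay at least 4-fold above the median of the 13 classes, most of them non-neuronal, in both libraries. Grm2 has no such fold, because its median class held no UMI in the fluconazole library.

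**Figure D1:**
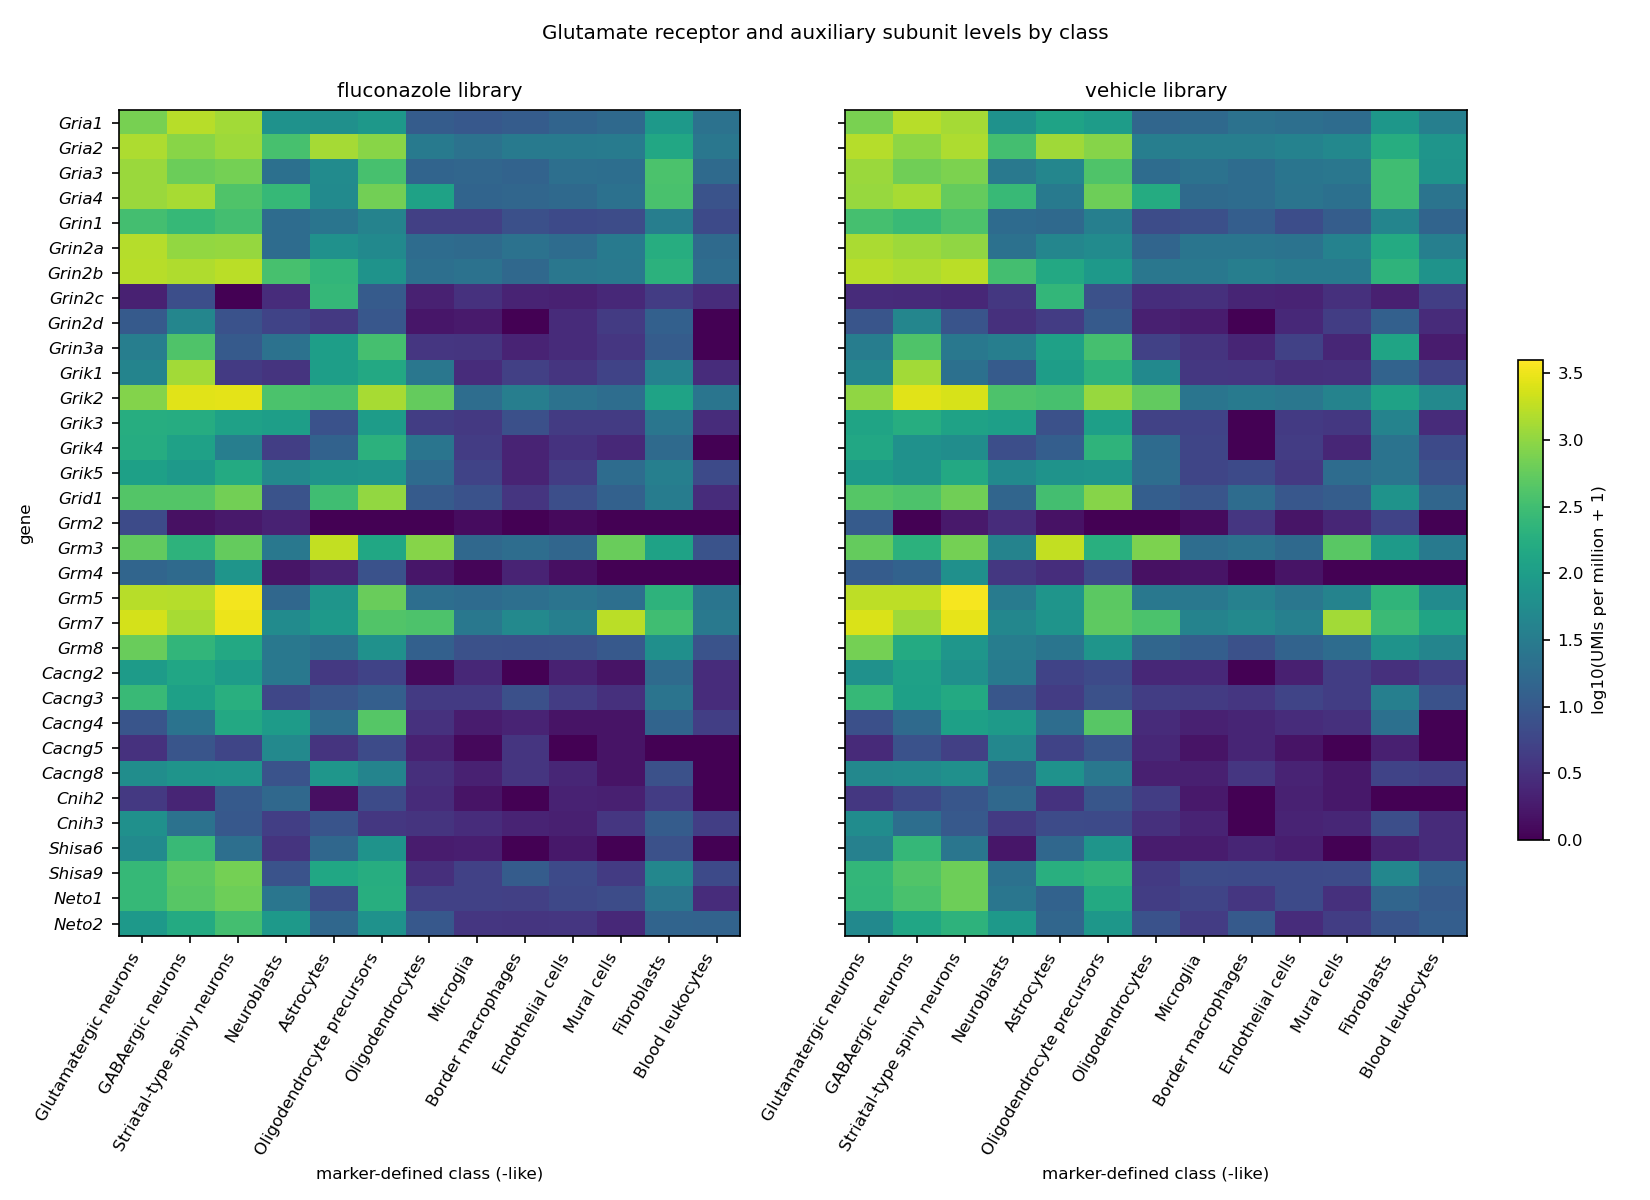
Level of each of the 33 genes (rows) in 13 marker-defined classes (columns) as log10 of CPM plus 1, with the fluconazole library in the left panel and the vehicle library in the right panel. Neuronal classes hold the highest level for most genes, whereas Grin2c and Grm3 peak in astrocytes and Cacng4 in oligodendrocyte precursors.

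In droplet data, free RNA gives UMIs in cells that do not express a gene. Gria2 had a UMI in 99.5% of fluconazole and 99.7% of vehicle glutamatergic neurons, and in 12.5% of fluconazole and 14.5% of vehicle microglia, a non-neuronal class. Thinned to 1500 UMIs per barcode, the shares were 84.2% of fluconazole and 89.5% of vehicle glutamatergic neurons, and 3.12% of fluconazole and 4.68% of vehicle microglia. Median depths of microglia were 5992 UMIs with fluconazole and 4592.5 UMIs with vehicle. Microglial markers, 6 of 6 found, summed to 289.8 CPM with fluconazole and 356 CPM with vehicle in glutamatergic neurons, against 12448 CPM with fluconazole and 12938 CPM with vehicle in microglia themselves. The vehicle neurons thus held more microglial marker RNA than the fluconazole neurons.

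Among the AMPA receptor subunits, GABAergic neurons had more Gria1 and less Gria2 and Gria3 than glutamatergic neurons. Gria1 was at 1642 CPM in the fluconazole library and 1623 CPM in the vehicle library in GABAergic neurons, and at 715 CPM with fluconazole and 758 CPM with vehicle in glutamatergic neurons. Gria2, whose edited form makes the channel nearly impermeable to calcium, was at 903 CPM with fluconazole and 986 CPM with vehicle in GABAergic neurons, and at 1419.9 CPM with fluconazole and 1591 CPM with vehicle in glutamatergic neurons. Gria3 was at 617 CPM with fluconazole and 662 CPM with vehicle in GABAergic neurons, and at 1132 CPM with fluconazole and 1157 CPM with vehicle in glutamatergic neurons. Both libraries give the same direction for each of the 3 genes.

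As a share of all Gria1 to Gria4 UMIs, Gria2 made up 20.01% (19.2 to 20.8) in fluconazole and 21.3% (20.4 to 22.2) in vehicle GABAergic neurons. In glutamatergic neurons the shares were 32.3% (32.0 to 32.6) with fluconazole and 34.4% (34.0 to 34.7) with vehicle. Interneuron types parted: Gria2 made up 16.0% with fluconazole and 18.05% with vehicle in Pvalb interneurons, the fast-spiking basket type, and 35.5% with fluconazole and 38.9% with vehicle in Vip interneurons, which mostly inhibit other interneurons. Sst interneurons, which target dendrites, had 17.6% with fluconazole and 18.7% with vehicle and were the subclass with the highest Gria1 level, at 2255 CPM with fluconazole and 2279 CPM with vehicle. UMI shares are not receptor stoichiometry, since genes yield different numbers of UMIs per transcript; divided by transcript length, the Gria2 share was 11.6% with fluconazole and 12.4% with vehicle in GABAergic neurons, and 19.8% with fluconazole and 21.4% with vehicle in glutamatergic neurons.

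Gria4, a subunit with fast gating, differed more between excitatory clusters than between GABAergic and glutamatergic neurons. It was at 1929.5 CPM with fluconazole and 1871 CPM with vehicle in a cluster led by Rorb and at 1608 CPM with fluconazole and 1801 CPM with vehicle in layer 5/6 NP (near-projecting) neurons, but at 427 CPM with fluconazole and 452 CPM with vehicle in layer 5 ET (extratelencephalic) neurons. Gria3 had the opposite order, at 1726 CPM with fluconazole and 1747 CPM with vehicle in layer 5 ET neurons and 565 CPM with fluconazole and 658 CPM with vehicle in the cluster led by Rorb. Outside neurons, astrocytes carried Gria2 almost alone, at 88.6% with fluconazole and 86.2% with vehicle of their AMPA subunit UMIs. In oligodendrocytes, where all 4 genes were low, Gria4 made up 68.9% with fluconazole and 71.4% with vehicle, at 116 CPM with fluconazole and 165 CPM with vehicle.

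**Figure D2:**
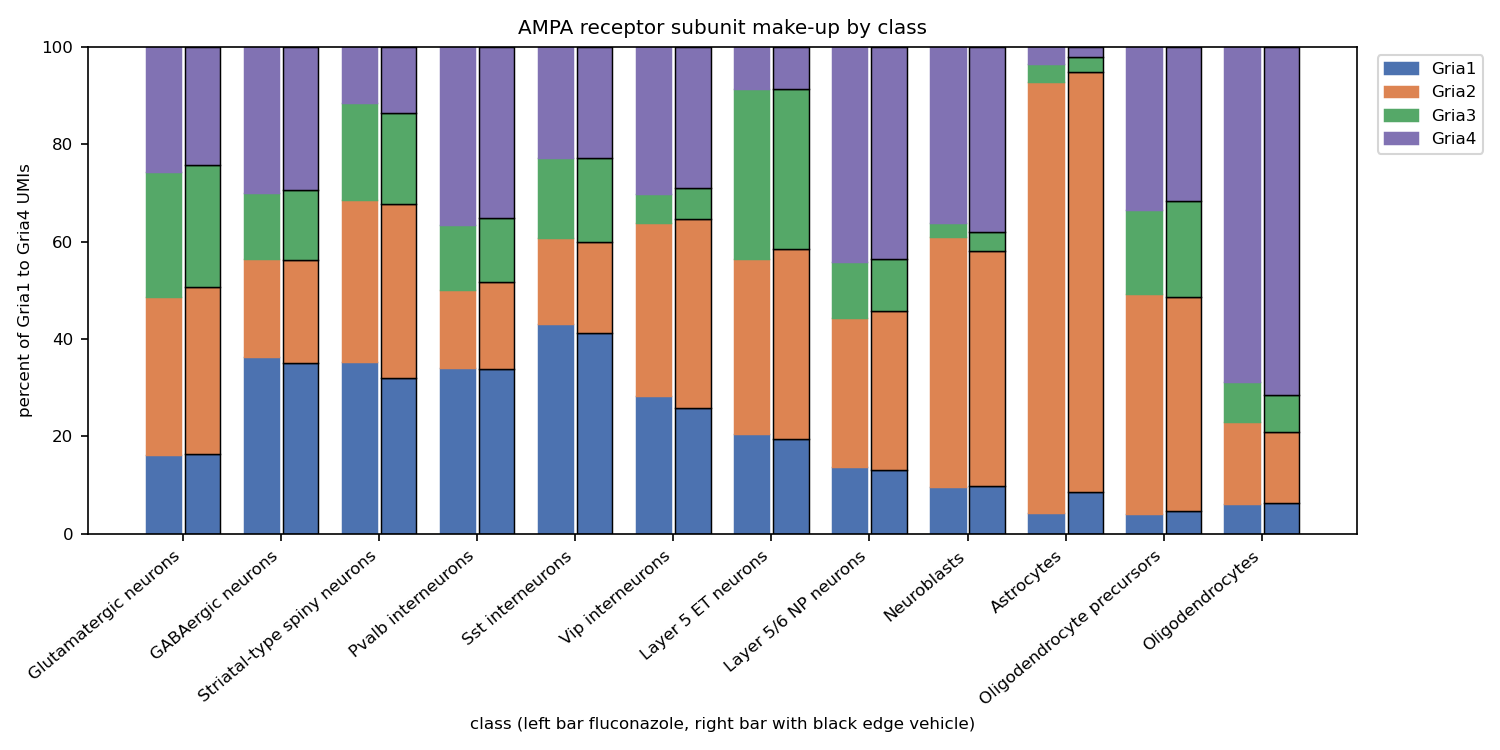
Percent of Gria1 to Gria4 UMIs that came from each subunit, as stacked bars for 12 classes, with the fluconazole bar left of the vehicle bar (black edge) in each pair. Gria2 takes 88.6% with fluconazole and 86.2% with vehicle in astrocytes but 16.0% with fluconazole and 18.05% with vehicle in Pvalb interneurons.

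NMDA receptor make-up set interneuron types apart. Grin1, the obligatory subunit, was at 258 CPM in the fluconazole library and 272 CPM in the vehicle library in GABAergic neurons. It was at 337 CPM with fluconazole and 397 CPM with vehicle in spiny neurons and 338 CPM with fluconazole and 339.5 CPM with vehicle in glutamatergic neurons. Grin2b, the Grin2 subunit that dominates early in development, was at 1472 CPM with fluconazole and 1438 CPM with vehicle in GABAergic neurons and 1653 CPM with fluconazole and 1619 CPM with vehicle in glutamatergic neurons. Grin2a, which increases as the cortex matures, ranged from 329.7 CPM with fluconazole and 382 CPM with vehicle in Vip interneurons to 2975 CPM with fluconazole and 3354 CPM with vehicle in Lamp5 interneurons, a type with only 33 fluconazole and 47 vehicle barcodes. Across the same neuron subclasses Grin1 ranged from 206 to 397 CPM with fluconazole and from 257 to 438 CPM with vehicle. Grin2b ranged from 1298 to 1905 CPM with fluconazole and from 1038 to 1900 CPM with vehicle. Grin1 and Grin2b were thus more even across neuron subclasses than Grin2a.

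Of the Grin2a and Grin2b UMIs, Grin2a made up 41.6% (40.3 to 42.9) in fluconazole and 44.7% (43.3 to 46.2) in vehicle GABAergic neurons. In glutamatergic neurons it made up 48.6% (48.2 to 49.1) with fluconazole and 46.0% (45.5 to 46.4) with vehicle. The fluconazole library had the smaller share in the inhibitory class and the larger share in the excitatory class, and the difference between the classes was not tested. Interneuron types went both ways: the fluconazole share was larger in Pvalb interneurons, at 37.8% with fluconazole and 27.9% with vehicle, and smaller in Sst interneurons, at 44.6% with fluconazole and 48.8% with vehicle, and in Lamp5 interneurons, at 67.9% with fluconazole and 76.4% with vehicle. Neuroblasts, the immature migrating class, had 4.75% with fluconazole and 5.92% with vehicle, the smallest of these shares.

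The rarer NMDA subunits each marked other cells. Grin3a, which lowers calcium permeability, was at 909 CPM with fluconazole and 962 CPM with vehicle in Sst interneurons and at 36.6 CPM with fluconazole and 32.1 CPM with vehicle in Pvalb interneurons, although both types arise from the medial ganglionic eminence. Oligodendrocyte precursors also held Grin3a, at 342 CPM with fluconazole and 348 CPM with vehicle, which was 65.6% with fluconazole and 64.3% with vehicle of their NMDA subunit UMIs. GABAergic markers, 7 of 8 found, summed in these precursors to 2902 CPM with fluconazole and 3417 CPM with vehicle. Their part in the Grin3a level was not tested. Grin2d was an interneuron gene, at 44.2 CPM with fluconazole and 43.4 CPM with vehicle in GABAergic neurons and 9.46 CPM with fluconazole and 7.88 CPM with vehicle in glutamatergic neurons. Grin2c was an astrocyte gene, at 247 CPM with fluconazole and 237 CPM with vehicle in astrocytes and 1.16 CPM with fluconazole and 1.77 CPM with vehicle in glutamatergic neurons.

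Kainate receptor genes gave the widest contrast between inhibitory and excitatory neurons. Grik1 was at 1241 CPM in the fluconazole library and 1275 CPM in the vehicle library in GABAergic neurons, and at 41.2 CPM with fluconazole and 41.8 CPM with vehicle in glutamatergic neurons. One excitatory type went against that pattern: layer 5/6 NP neurons, with 46 fluconazole and 57 vehicle barcodes, had 1063 CPM with fluconazole and 921 CPM with vehicle of Grik1, and layer 2/3 IT (intratelencephalic) neurons had 3.02 CPM with fluconazole and 7.15 CPM with vehicle. The NP barcodes also carried 1634 CPM with fluconazole and 1928 CPM with vehicle of summed GABAergic markers, and the part of these in the Grik1 level was not tested. In each library 6 of 8 of these markers were found, and Nxph1, which is in the sum, was a leading gene of the NP cluster. Grik2 was at 2785 CPM with fluconazole and 2705 CPM with vehicle in GABAergic neurons and 2824 CPM with fluconazole and 2391 CPM with vehicle in spiny neurons, against 866 CPM with fluconazole and 1020.3 CPM with vehicle in glutamatergic neurons.

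Grik3 parted layers and spiny neuron types instead. It was at 504 CPM with fluconazole and 478 CPM with vehicle in layer 6 CT (corticothalamic) neurons and 8.49 CPM with fluconazole and 8.94 CPM with vehicle in layer 2/3 IT neurons. In D1 spiny neurons, of the direct pathway, it was at 17.6 CPM with fluconazole and 24.0 CPM with vehicle, and in D2 spiny neurons, of the indirect pathway, at 239 CPM with fluconazole and 267 CPM with vehicle. Grik4 and Grik5 encode high-affinity subunits that need a partner to form a channel. Among the 13 main classes Grik4 was highest in oligodendrocyte precursors, at 202 CPM with fluconazole and 221 CPM with vehicle, and Grik5 in spiny neurons, at 160.4 CPM with fluconazole and 148 CPM with vehicle. Layer 6 CT neurons, a subclass, had more Grik4, at 315 CPM with fluconazole and 258 CPM with vehicle, and so did a glutamatergic cluster led by Moxd1, with 51 fluconazole and 36 vehicle barcodes, at 377 CPM with fluconazole and 268 CPM with vehicle. Grid1, a delta receptor that binds cerebellins rather than acting as a classical glutamate-gated channel, was also highest in oligodendrocyte precursors among the main classes, at 1029 CPM with fluconazole and 896 CPM with vehicle, against 427 CPM with fluconazole and 453 CPM with vehicle in glutamatergic neurons.

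Metabotropic receptors marked glia and vessel-associated cells as well as neurons. Grm3, which couples to Gi, was at 1854 CPM with fluconazole and 1864 CPM with vehicle in astrocytes, 878 CPM with fluconazole and 785 CPM with vehicle in oligodendrocytes and 595 CPM with fluconazole and 469.9 CPM with vehicle in mural cells. Grm7, known in neurons as a presynaptic receptor, was at 1701 CPM with fluconazole and 1249.7 CPM with vehicle in mural cells, whereas endothelial cells had 35.2 CPM with fluconazole and 36.1 CPM with vehicle. The corresponding levels in microglia were 15.7 CPM with fluconazole and 18.2 CPM with vehicle for Grm3 and 26.9 CPM with fluconazole and 39.6 CPM with vehicle for Grm7, so both genes stood well above the microglial level in mural cells. The summed glutamatergic markers in mural cells were 30.5 CPM with fluconazole and 33.3 CPM with vehicle.

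Grm5, a Gq-coupled postsynaptic receptor, was highest among the main classes in spiny neurons, at 3427 CPM with fluconazole and 3555 CPM with vehicle, and so was the presynaptic Grm4, at 73.9 CPM with fluconazole and 62.8 CPM with vehicle. Grm8, also presynaptic, was at 1173 CPM with fluconazole and 1290.1 CPM with vehicle in layer 6 CT neurons and 214 CPM with fluconazole and 279 CPM with vehicle in layer 2/3 IT neurons. Among interneurons it was at 704 CPM with fluconazole and 502 CPM with vehicle in the Vip type and 30.2 CPM with fluconazole and 41.8 CPM with vehicle in the Pvalb type. Grm2, a presynaptic autoreceptor, was scarce everywhere, and its highest main class was glutamatergic neurons, at 5.63 CPM with fluconazole and 9.78 CPM with vehicle.

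The auxiliary subunits also differed by class. Cacng3, a TARP, was at 447 CPM with fluconazole and 416 CPM with vehicle in layer 2/3 IT neurons and 127 CPM with fluconazole and 106 CPM with vehicle in layer 6 CT neurons. Cacng4 was at 439.5 CPM with fluconazole and 461 CPM with vehicle in oligodendrocyte precursors and 7.89 CPM with fluconazole and 6.63 CPM with vehicle in glutamatergic neurons. Among the main classes Cacng5 was highest in neuroblasts, at 48.4 CPM with fluconazole and 45.8 CPM with vehicle. Cacng8 was spread over astrocytes, at 76.7 CPM with fluconazole and 67.9 CPM with vehicle, spiny neurons, at 75.5 CPM with fluconazole and 63.5 CPM with vehicle, and GABAergic neurons, at 71.6 CPM with fluconazole and 51.7 CPM with vehicle. Cacng2, or stargazin, was highest among the main classes in GABAergic neurons, at 132 CPM with fluconazole and 115 CPM with vehicle.

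The cornichons and Shisa proteins followed other cells. Cnih3 was at 135 CPM with fluconazole and 96.3 CPM with vehicle in the cluster led by Rorb and 14.9 CPM with fluconazole and 11.4 CPM with vehicle in layer 2/3 IT neurons, and Cnih2 was low throughout, and highest among the main classes in neuroblasts at 15.3 CPM with fluconazole and 15.4 CPM with vehicle. Shisa6 was at 433 CPM with fluconazole and 491 CPM with vehicle in Sst interneurons and 4.78 CPM with fluconazole and 8.03 CPM with vehicle in Pvalb interneurons. Shisa9 had the opposite order between these types, at 98.6 CPM with fluconazole and 64.9 CPM with vehicle in Sst interneurons and 468 CPM with fluconazole and 496 CPM with vehicle in Pvalb interneurons. Vip interneurons held both, with Shisa6 at 413 CPM with fluconazole and 328 CPM with vehicle and Shisa9 at 1125 CPM with fluconazole and 1007 CPM with vehicle. The kainate partners Neto1 and Neto2 were both highest among the main classes in spiny neurons, Neto1 at 637 CPM with fluconazole and 648 CPM with vehicle and Neto2 at 334 CPM with fluconazole and 214 CPM with vehicle. Of the subclasses, layer 5/6 NP neurons had more Neto2, at 516 CPM with fluconazole and 336 CPM with vehicle, and Sst interneurons had Neto1 at 689 CPM with fluconazole and 641 CPM with vehicle.

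Set against glutamatergic neurons of the same library, GABAergic neurons were at least 2-fold higher (a log2 ratio of at least 1.0) in both libraries for 7 of 29 measured genes, namely Gria1, Grin2d, Grin3a, Grik1, Grik2, Cacng4 and Shisa6. Taken library by library, 7 genes were higher with fluconazole and 8 with vehicle. Over all measured genes, 6.69% were higher by that much in the fluconazole library and 6.58% in the vehicle library. A gene counted as measured with at least 100 UMIs over the compared groups. Grik1 was higher by 30.1-fold with fluconazole and 30.5-fold with vehicle, and Grin3a by 12.2-fold with fluconazole and 12.2-fold with vehicle. Shisa6 was higher by 5.26-fold with fluconazole and 6.57-fold with vehicle, and Grin2d by 4.68-fold with fluconazole and 5.52-fold with vehicle. The other 3 lay between these and 2-fold.

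GABAergic neurons were at least 2-fold lower in both libraries for 4 of the 29 genes, Grm3, Grm8, Cacng3 and Cnih3. The count of lower genes was 7 with the 33 genes allowed among the variable genes and 2 with mixed subclusters kept. In the first of these settings the larger Sst cluster, of 88 fluconazole and 108 vehicle barcodes, counted as mixed and was left out. Counting each library by itself, 4 genes were lower with fluconazole and 7 with vehicle. Over all genes, 8.67% with fluconazole and 8.36% with vehicle were. Grm8 had log2 ratios of -1.38 with fluconazole and -2.19 with vehicle. Spiny neurons were at least 2-fold higher than glutamatergic neurons in both libraries for 7 of 29 genes (Grik2, Grm4, Grm5, Cacng4, Shisa9, Neto1 and Neto2). By single library the counts were 7 with fluconazole and 7 with vehicle, beside 6.85% of all genes with fluconazole and 6.26% with vehicle. They were lower in both libraries for 5 (Gria4, Grik1, Grik4, Grm8 and Cnih3). By single library 7 were lower with fluconazole and 6 with vehicle, beside 13.1% of all genes with fluconazole and 10.7% with vehicle. These are descriptions, because the classes were drawn from the same barcodes.

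**Figure D3:**
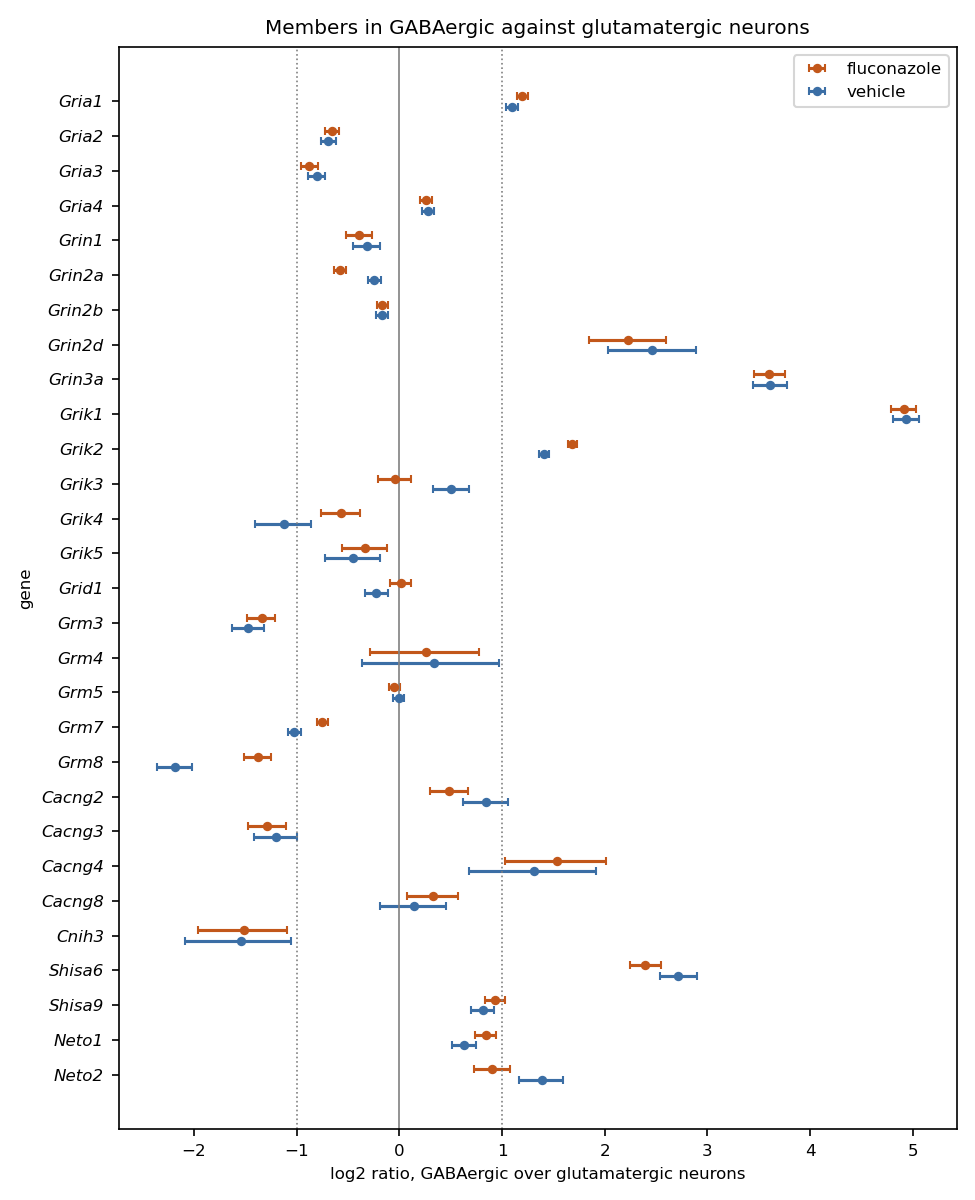
Log2 ratio of GABAergic over glutamatergic CPM for the 29 genes measured in both libraries, with 95% counting intervals, fluconazole in orange and vehicle in blue. Dotted lines mark ratios of 1.0 either way, and Grik1 lies farthest to the right, at 4.91 with fluconazole and 4.93 with vehicle.

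Between treatments, most receptor subunits of glutamatergic neurons differed by less than 0.5 on the log2 scale, whereas the auxiliary subunits Neto2 and Cacng2 and the kainate subunit Grik3 were higher in the fluconazole library. Of 30 genes measured in the class, 3 were higher by a log2 ratio of at least 0.5, where 2.27% of all genes were. Grm2 alone was lower by that much, where 3.86% of all genes were. The median log2 ratio was 0.06 over the 30 genes and -0.03 over all 13286 genes measured.

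Neto2, which slows kainate receptor desensitisation, was at 84.1 CPM (95% Poisson interval 79.8 to 88.5) in the fluconazole library and at 50.5 CPM (95% Poisson interval 47.0 to 54.2) in the vehicle library. The log2 ratio was 0.73 (0.61 to 0.86) and stayed between 0.73 and 0.77 under 9 alternative settings. Neto2 had a UMI in 46.1% of fluconazole and 27.1% of vehicle glutamatergic barcodes, and in 1.49% of fluconazole and 1.49% of vehicle microglia. After thinning the shares were 11.3% of fluconazole and 7.38% of vehicle glutamatergic barcodes, and 0.380% of fluconazole and 0.577% of vehicle microglia. The glutamatergic share was thus larger in the fluconazole library after thinning as well. The part of depth in the Neto2 difference was not tested.

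Cacng2, which carries AMPA receptors to the synapse, was at 94.6 CPM in the fluconazole library, against 64.4 CPM in the vehicle library, a log2 ratio of 0.55 (0.44 to 0.67), which was 0.45 when clusters were weighted equally. Grik3 was at 177 CPM in the fluconazole library, against 125 CPM in the vehicle library, a ratio of 0.50 (0.42 to 0.59). It lay at the boundary and was 0.29 with equal weights, 0.47 with mixed subclusters kept and 0.49 without the single barcode richest in it. Grm2 was at 5.63 CPM in the fluconazole library, against 9.78 CPM in the vehicle library, from 97 fluconazole and 149 vehicle UMIs, a ratio of -0.80 (-1.18 to -0.42), but the ratio was -0.03 after thinning. Just inside the boundary stood Grik3, and just outside stood Shisa6 at 0.47 and Grm4 at 0.45.

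The main receptor subunits differed by less. Gria2 had a ratio of -0.16 (-0.19 to -0.14), Grin2a 0.18 (0.16 to 0.21), Grik2 -0.24 (-0.27 to -0.20) and Grm8 -0.25 (-0.29 to -0.21). These intervals leave out 0, but they do not include variation between animals.

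**Figure D4:**
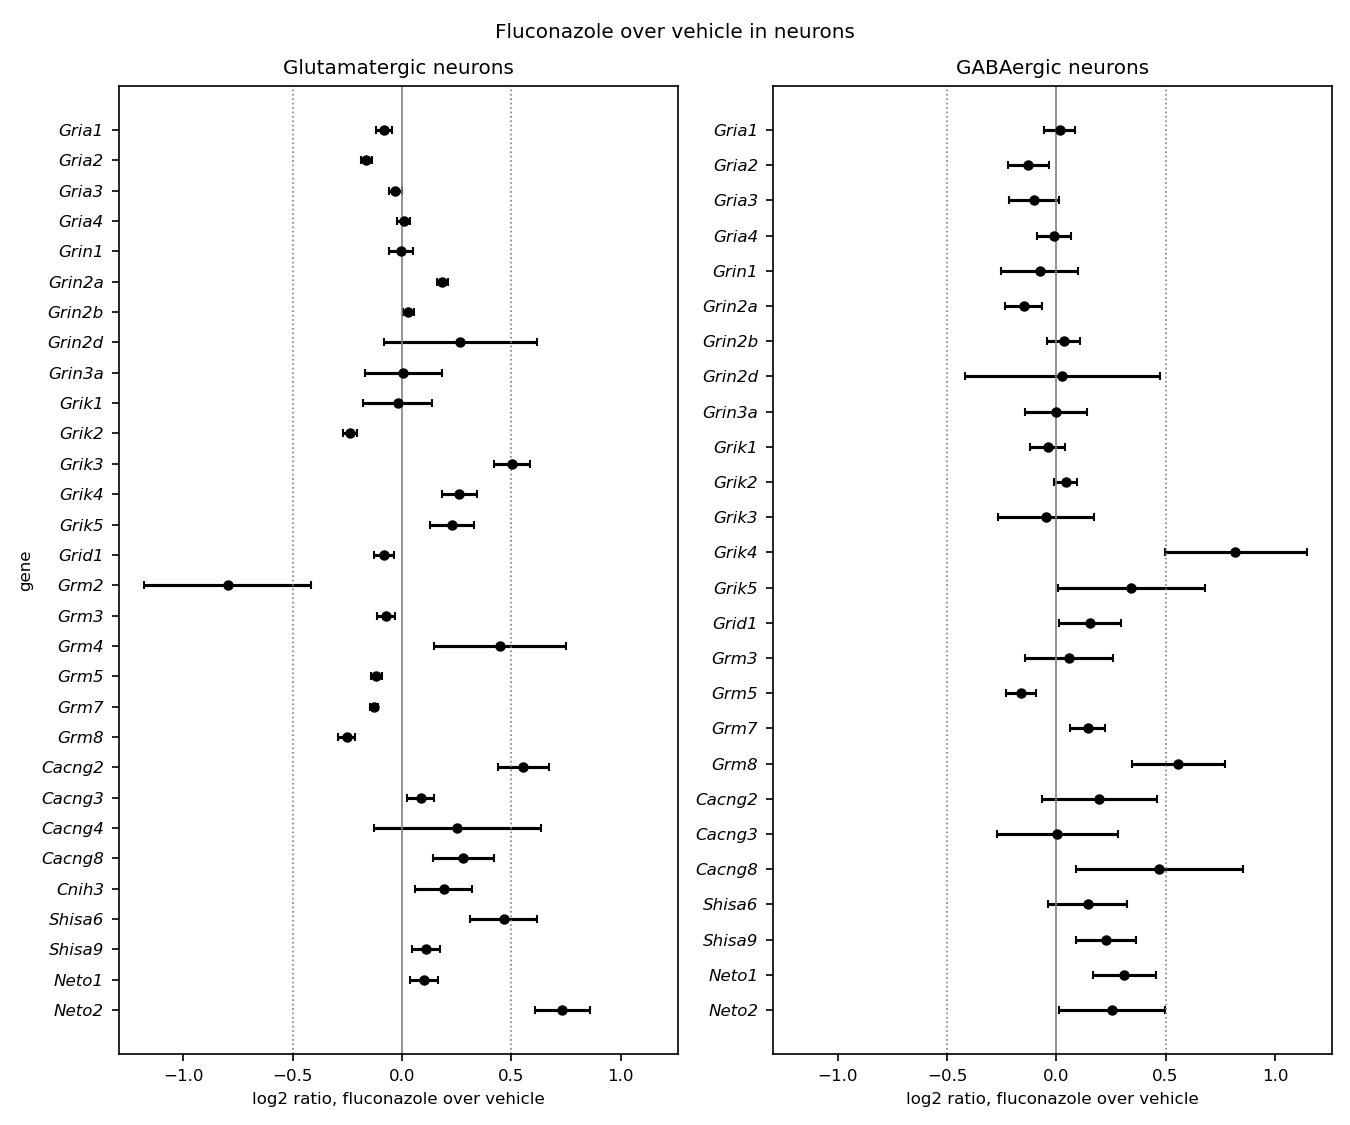
Log2 ratio of fluconazole over vehicle CPM, with 95% counting intervals, for the genes measured in glutamatergic neurons (left) and GABAergic neurons (right). Dotted lines mark ratios of 0.5 either way; on the left Neto2 lies at 0.73 and Grm2 at -0.80, and on the right Grik4 lies at 0.82.

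By excitatory cluster, the Neto2 difference was uneven. In a cluster led by Il1rapl2 it was at 68.8 CPM in the fluconazole library, against 24.4 CPM in the vehicle library, a log2 ratio of 1.495 (0.98 to 2.04). In a cluster led by Oprk1 it was at 64.7 CPM with fluconazole, against 27.3 CPM with vehicle, a ratio of 1.25 (0.69 to 1.83). Both ratios stayed past 0.5 under all 8 alternatives run for subclasses. In layer 6 CT neurons it was at 115 CPM with fluconazole, against 72.03 CPM with vehicle, a ratio of 0.67, or 0.22 after thinning, and in the cluster led by Rorb at 18.7 CPM with fluconazole, against 18.8 CPM with vehicle. Neto2 was not among the genes past 0.5 in layer 2/3 IT or layer 5 ET neurons.

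Cacng2 was higher in the fluconazole library in each of the 6 excitatory clusters compared, with log2 ratios between 0.28 in the cluster led by Rorb and 0.80 in the cluster led by Il1rapl2. After thinning its ratio was 0.49 in layer 2/3 IT neurons and 0.18 in layer 5 ET neurons. The Grik3 difference was past 0.5 in the cluster led by Oprk1, at 275 CPM with fluconazole, against 171 CPM with vehicle, a ratio of 0.69 (0.46 to 0.93). In that cluster Grik4 was at 215 CPM with fluconazole, against 143 CPM with vehicle, a ratio of 0.58, or 0.17 after thinning.

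Counts by cluster were read against the share of all genes. In the cluster led by Oprk1, 3 of 23 measured genes were higher and none lower, with 5.17% of all genes higher and 3.71% lower. Layer 6 CT neurons had 2 of 22 higher (Cacng2 and Neto2) and none lower, with 4.75% of all genes higher and 4.24% lower. Layer 2/3 IT neurons had 1 of 24 higher (Cacng2) and none lower, with 3.3% of all genes higher and 4.18% lower.

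The cluster led by Rorb had 3 other genes past 0.5. Grik1 was at 82.9 CPM in the fluconazole library, against 33.2 CPM in the vehicle library, a log2 ratio of 1.32 (0.97 to 1.68). Shisa6 was at 49.1 CPM with fluconazole, against 25.8 CPM with vehicle, a ratio of 0.93 (0.51 to 1.35), and Grm8 at 387 CPM with fluconazole, against 580.1 CPM with vehicle, a ratio of -0.58 (-0.70 to -0.47). All 3 stayed past 0.5 under all 8 alternatives. That made 2 of 27 measured genes higher and 1 lower, with 3.35% of all genes higher and 4.63% lower. In the cluster led by Il1rapl2, Grik5 was at 127 CPM with fluconazole, against 76.8 CPM with vehicle, a ratio of 0.72 (0.41 to 1.04). There, 3 of 23 genes were higher (Grik5, Cacng2 and Neto2), and none lower, with 4.22% of all genes higher and 3.83% lower. Layer 5 ET neurons had 2 of 24 higher and none lower, with 3.74% of all genes higher and 5.03% lower. They were Cacng2, and Grin3a at 46.0 CPM with fluconazole, against 32.2 CPM with vehicle, a ratio of 0.51 (-0.01 to 1.04), which was past 0.5 under 6 of 8 alternatives.

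**Figure D5:**
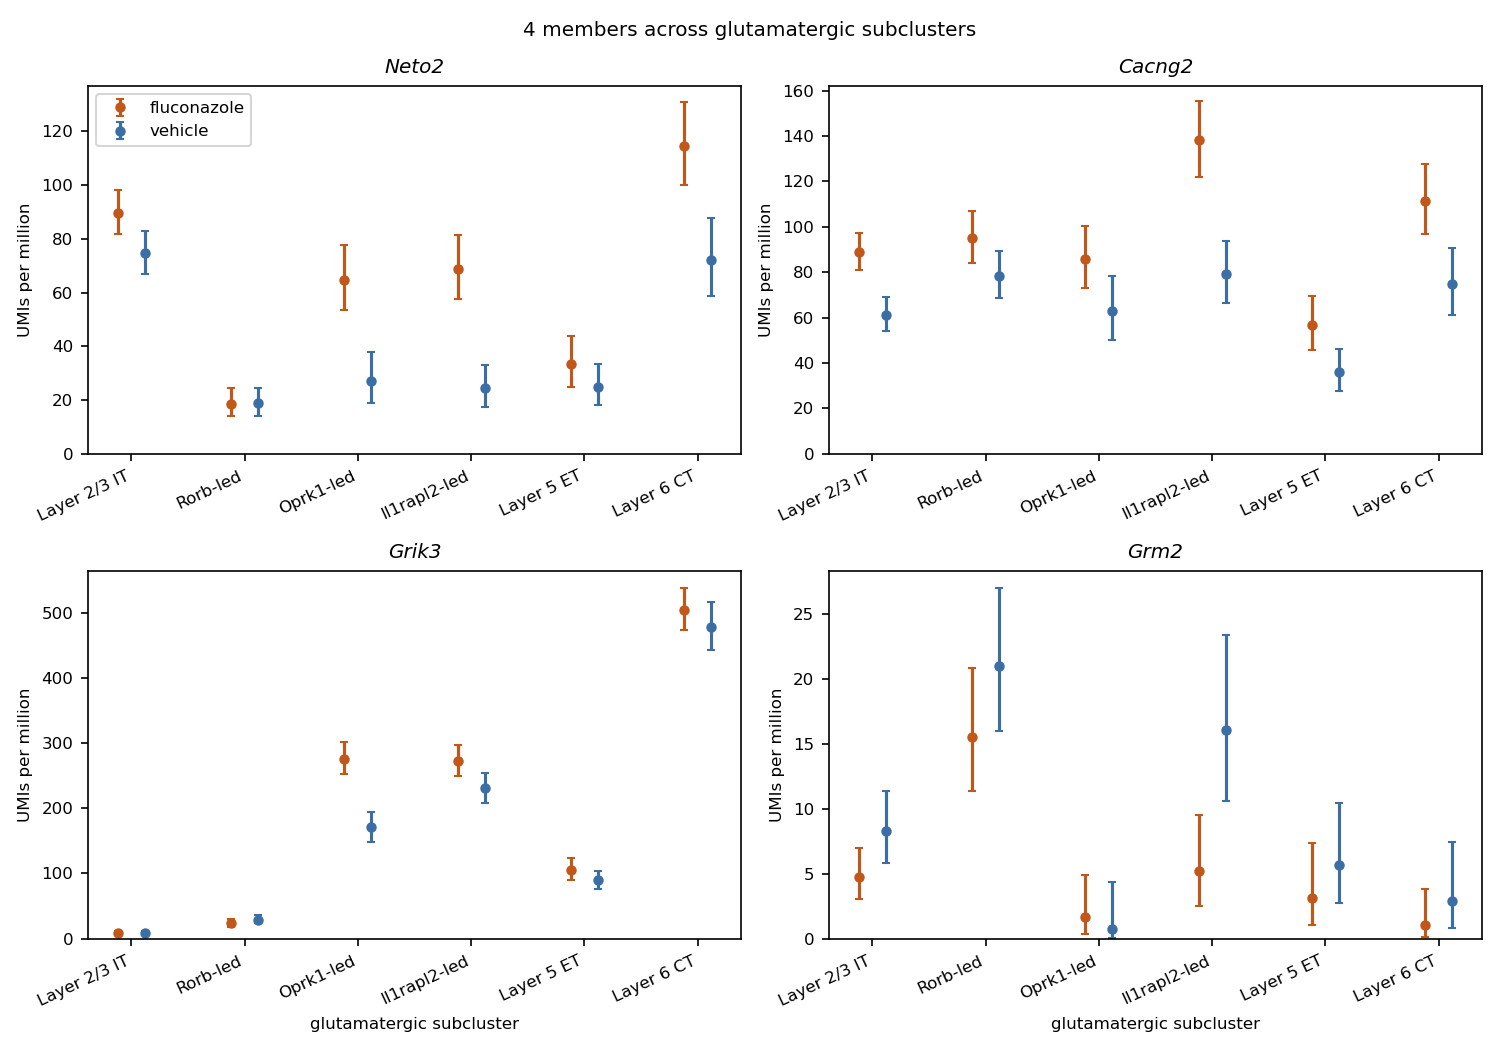
CPM of Neto2, Cacng2, Grik3 and Grm2 in 6 glutamatergic clusters, with the fluconazole library (orange) left of the vehicle library (blue) and exact 95% Poisson intervals. For Neto2 the clusters led by Il1rapl2 and Oprk1 are farthest apart, at 68.8 CPM with fluconazole and 24.4 CPM with vehicle and at 64.7 CPM with fluconazole and 27.3 CPM with vehicle.

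The promoters of the 4 glutamatergic genes past the ratio are shown so that their base composition can be read beside the values. RefSeq promoters of build GRCm38.p6, from 250 bases before to 50 bases after the start, were matched for 20 of the 33 genes. Neto2 is at chr8:85700875-85701174 on the minus strand and is 1 of 2 listed starts, Cacng2 at chr15:78119231-78119530 on the minus strand, Grik3 at chr4:125490446-125490745 on the plus strand and Grm2 at chr9:106656060-106656359 on the minus strand. Capitals mark matches on either strand to GGGCGG (the Sp1 GC box), TGCGCA (the NRF1 core), TGACG (the CRE core), and TCAGCAC and GGACAGC (the left and right parts of RE1); no matches overlap.
Neto2: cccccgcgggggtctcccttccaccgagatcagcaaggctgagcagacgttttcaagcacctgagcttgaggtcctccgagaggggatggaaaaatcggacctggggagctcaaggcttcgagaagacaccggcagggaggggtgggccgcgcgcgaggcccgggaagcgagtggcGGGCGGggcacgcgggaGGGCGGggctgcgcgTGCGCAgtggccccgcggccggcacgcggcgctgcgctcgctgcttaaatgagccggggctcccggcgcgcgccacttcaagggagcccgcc
Cacng2: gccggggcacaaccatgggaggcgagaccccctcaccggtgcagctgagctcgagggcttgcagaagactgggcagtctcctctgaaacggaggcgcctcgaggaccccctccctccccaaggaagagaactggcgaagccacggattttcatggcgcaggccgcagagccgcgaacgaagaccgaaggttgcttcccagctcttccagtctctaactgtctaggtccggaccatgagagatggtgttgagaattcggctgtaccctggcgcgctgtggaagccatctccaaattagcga
Grik3: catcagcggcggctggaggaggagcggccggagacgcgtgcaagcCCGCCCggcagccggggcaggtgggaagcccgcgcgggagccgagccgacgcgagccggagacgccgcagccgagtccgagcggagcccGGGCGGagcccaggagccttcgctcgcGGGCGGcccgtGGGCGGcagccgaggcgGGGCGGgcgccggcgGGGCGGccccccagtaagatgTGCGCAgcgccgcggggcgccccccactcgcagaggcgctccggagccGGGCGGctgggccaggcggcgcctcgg
Grm2: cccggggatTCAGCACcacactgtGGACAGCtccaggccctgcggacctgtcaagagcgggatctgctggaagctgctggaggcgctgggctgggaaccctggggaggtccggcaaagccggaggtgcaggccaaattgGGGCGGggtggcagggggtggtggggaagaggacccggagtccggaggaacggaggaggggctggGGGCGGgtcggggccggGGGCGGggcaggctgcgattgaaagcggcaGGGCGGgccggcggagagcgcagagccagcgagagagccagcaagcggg

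The Neto2 window held the GC box letters 2 times, Grik3 7 times and Grm2 4 times, and none of the letters searched were in the Cacng2 window. Of 32851 RefSeq promoters of that length, 35.7% held the GC box and 7.76% held TGCGCA, found 1 time each in Neto2 and Grik3. Grm2 held both RE1 parts, of which TCAGCAC was in 5.12% and GGACAGC in 6.56% of all promoters. TGACG, in 20.8% of all promoters, was in none of the 4. GC content was 72% for Neto2, 61% for Cacng2, 82% for Grik3 and 72% for Grm2. A match describes letters only.

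In GABAergic neurons, Grik4 and Grm8 were higher in the fluconazole library by at least 0.5, which is 2 of 26 measured genes, where 2.63% of all genes were. None was lower by that much, where 3.48% of all genes were. Grik4 was at 115 CPM in the fluconazole library, against 65.4 CPM in the vehicle library, a log2 ratio of 0.82 (0.50 to 1.14), and stayed past 0.5 under all 9 alternatives. Grm8 was at 229.9 CPM in the fluconazole library, against 156 CPM in the vehicle library, a ratio of 0.56 (0.34 to 0.77), which lay between 0.08 and 0.71 under the alternatives. Endothelial markers in GABAergic neurons summed to 437 CPM with fluconazole and 476 CPM with vehicle, and their part was not tested.

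Among interneuron types, the genes past 0.5 were as follows, and differences between types were not tested. In Pvalb interneurons, Grin2a was at 876 CPM in the fluconazole library, against 539.7 CPM in the vehicle library, a log2 ratio of 0.70 (0.50 to 0.90), from 84 fluconazole and 123 vehicle barcodes, and stayed past 0.5 under all 8 alternatives. Neto2 was at 169 CPM with fluconazole, against 119 CPM with vehicle, a ratio of 0.51 (0.06 to 0.95) that was past 0.5 under 6 of 8 alternatives, so that 2 of 17 genes were higher, and none lower, with 3.12% of all genes higher and 3.93% lower. In Sst interneurons 2 of 24 were higher and none lower, with 4.16% of all genes higher and 4.77% lower. Grik5 was at 101 CPM with fluconazole, against 63.3 CPM with vehicle, a ratio of 0.67, or 0.05 at a subcluster resolution of 0.5. Shisa9 was at 98.6 CPM with fluconazole, against 64.9 CPM with vehicle, a ratio of 0.60. With the 33 genes allowed among the variable genes, the Shisa9 ratio was -0.72. There the larger Sst cluster counted as mixed, and only 8 fluconazole and 2 vehicle barcodes kept the Sst name. In Vip interneurons 2 of 19 were higher and none lower, with 4.39% of all genes higher and 4.19% lower. Grik4 was at 271 CPM with fluconazole, against 177 CPM with vehicle, a ratio of 0.61 that was past 0.5 under 4 of 8 alternatives. Neto1 was at 488 CPM with fluconazole, against 244 CPM with vehicle, a ratio of 1.00 (0.64 to 1.38), or 0.40 after thinning.

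In striatal-type spiny neurons, Grm8, Cacng2 and Neto2 were higher, 3 of 24 measured genes, where 4.6% of all genes were. Neto2 was at 334 CPM in the fluconazole library, against 214 CPM in the vehicle library, a log2 ratio of 0.64 (0.42 to 0.86), and stayed past 0.5 under all 9 alternatives. Cacng2 was at 97.47 CPM with fluconazole, against 62.8 CPM with vehicle, a ratio of 0.63 (0.22 to 1.05), or 0.28 after thinning. Grm8 was at 149 CPM with fluconazole, against 76.4 CPM with vehicle, a ratio of 0.97 (0.61 to 1.33), but -0.0033 with mixed subclusters kept. Grik4 was the 1 lower gene, at 33.8 CPM with fluconazole, against 56.7 CPM with vehicle, a ratio of -0.75 (-1.32 to -0.19), where 7.6% of all genes were lower. The spiny class also held an unnamed subcluster that met too few markers, with 16 fluconazole and 60 vehicle barcodes. Its part in these ratios was not tested.

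Spiny neurons were also split into D1 and D2 types. Of 20 genes measured in D1 spiny neurons, 4 were higher and 1 lower, with 6.34% of all genes higher and 7.87% lower. Neto2 was at 353 CPM in the fluconazole library, against 189 CPM in the vehicle library, a log2 ratio of 0.90 (0.58 to 1.23). Grm8 was at 161 CPM with fluconazole, against 83.2 CPM with vehicle, a ratio of 0.96 (0.47 to 1.45), and Cacng4 at 153 CPM with fluconazole, against 97.6 CPM with vehicle, a ratio of 0.65 (0.19 to 1.12). Cacng2 had a ratio of 0.54, or 0.21 after thinning, and Gria4, the lower gene, -0.52, or -0.39. None of 19 genes measured in D2 spiny neurons was past 0.5, with 5.13% of all genes higher and 6.29% lower. Whether the D1 and D2 types differ was not tested.

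In microglia all 18 measured genes were lower in the fluconazole library, and 9 were by at least 0.5 (Gria1, Gria2, Gria3, Grin1, Grik3, Grm5, Grm7, Grm8 and Shisa9), where 2.69% of all genes were lower and 1.7% higher. The median was -0.51, and 0.00 over all genes. Gria1 was at 8.66 CPM in the fluconazole library, against 15.9 CPM in the vehicle library, and Gria2 at 21.9 CPM with fluconazole, against 33.9 CPM with vehicle. Both are small beside the neuronal levels. Gria1, Gria2, Gria3, Grm5 and Grm7 stayed past 0.5 under all 9 alternatives, and Grik3 was at 0.40 after thinning. Alternatives that act only on subclusters cannot change classes that were not subclustered, such as microglia, endothelial cells and astrocytes. GABAergic markers, 8 of 8 found, summed to 20.4 CPM with fluconazole and 33.3 CPM with vehicle in microglia and glutamatergic markers, 7 of 7 found, to 28.2 CPM with fluconazole and 29.8 CPM with vehicle. Endothelial cells showed 3 of 15 genes lower (Gria1, Gria4 and Grm8, of which Grm8 stayed past 0.5 under all 9 alternatives), with 2.44% of all genes lower and 1.84% higher, beside GABAergic markers at 29.5 CPM with fluconazole and 45.5 CPM with vehicle and glutamatergic markers at 23.6 CPM with fluconazole and 31.3 CPM with vehicle. The part of neuronal RNA in these differences was not tested.

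In astrocytes, Gria1 was lower and Grin2a, Grin2b and Gria4 were higher, out of 17 measured genes, with 3.48% of all genes lower and 2.07% higher. Gria1 was at 64.0 CPM in the fluconazole library, against 123 CPM in the vehicle library, a log2 ratio of -0.94 (-1.24 to -0.65), and stayed past 0.5 under all 9 alternatives. Grin2b was at 230.1 CPM with fluconazole, against 147 CPM with vehicle, a ratio of 0.64 (0.44 to 0.85), or 0.39 with called doublets kept. Grin2a was at 64.9 CPM with fluconazole, against 44.5 CPM with vehicle, a ratio of 0.54, or 0.14 after thinning, 0.42 with called doublets kept and 0.37 without the barcode that held 21.4% of its fluconazole UMIs. Gria4 was at 51.8 CPM with fluconazole, against 29.7 CPM with vehicle, with 35.0% in 1 barcode, and its ratio of 0.81 was -0.52 with called doublets kept and -0.11 after thinning. The summed glutamatergic markers in astrocytes were 55.6 CPM with fluconazole and 41.6 CPM with vehicle, and their part was not tested.

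Oligodendrocytes had 1 of 14 genes lower, Grik1 at 25.5 CPM in the fluconazole library, against 50.4 CPM in the vehicle library, a log2 ratio of -0.98 (-1.32 to -0.66), with 1.68% of all genes lower. Oligodendrocyte precursors had none of 21 past 0.5, with 5.61% of all genes higher and 5% lower. Neuroblasts had 3 of 18 lower and none higher, with 3.77% of all genes lower and 1.89% higher. Of these, Grm5 was at 14.7 CPM with fluconazole, against 30.4 CPM with vehicle, a ratio of -1.05 (-1.76 to -0.39), which stayed past 0.5 under all 9 alternatives. Grin3a, at -0.62, and Grm3, at -0.55, were at -0.40 and at 0.24 after thinning.

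The remaining classes had at most 1 gene past 0.5. Mural cells had 1 of 4 lower, Gria2 at 30.5 CPM in the fluconazole library, against 46.7 CPM in the vehicle library, a log2 ratio of -0.61 (-1.15 to -0.08), with 2.85% of all genes lower and 2.97% higher. Fibroblasts had 1 of 12 lower, Grin3a with 6 fluconazole and 118 vehicle UMIs, of which 52.5% of the vehicle UMIs lay in 1 barcode, a ratio of -3.65 that was 1.52 with the 33 genes among the variable genes, with 11.7% of all genes lower. In blood leukocytes the 1 measured gene, Grm7, was lower, with 15 fluconazole and 139 vehicle UMIs, and 9.27% of all genes were. Endothelial markers, 6 of 6 found, summed there to 325 CPM with fluconazole and 1317 CPM with vehicle, and their part was not tested. No gene of the set was measured in border macrophages.

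A list of 39 other genes of glutamate signalling, with transporters, synaptic organisers and further receptor partners, was measured the same way. None of 31 measured in glutamatergic neurons was past 0.5, with a median of 0.13, where 2.27% of all genes were higher and 3.86% lower. In GABAergic neurons 1 of 21 was higher, Elfn1 at 0.62, a postsynaptic protein that recruits presynaptic metabotropic receptors, and 1 lower, Frrs1l at -0.59, which assists AMPA receptor assembly. Of all genes in that class, 2.63% were higher and 3.48% lower. Elfn1 was past 0.5 under 4 of 9 alternatives, and Frrs1l was at -0.28 after thinning. In spiny neurons 1 of 15 was higher, Gsg1l at 0.60, an AMPA receptor auxiliary subunit, or 0.16 after thinning, and 1 lower, Olfm3 at -1.54. Of all genes in spiny neurons, 4.6% were higher and 7.6% lower. The Olfm3 ratio was past 0.5 under all 9 alternatives, with 108 fluconazole and 327 vehicle UMIs.

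Outside these neurons the same list gave 1 of 11 higher in oligodendrocyte precursors (the transporter Slc1a1, 0.62, or 0.48 without the barcode richest in it), with 5.61% of all genes higher. It gave 1 of 16 lower in oligodendrocytes (Shisa8, -0.59, or -0.17 after thinning), with 1.68% of all genes lower. In microglia, Olfm1 was lower at -0.60 and Slc1a1 at -0.53, or 0.12 after thinning. In endothelial cells, Slc17a7, the vesicular transporter of cortical excitatory neurons, was lower at -0.70, or -0.45 after thinning. In astrocytes none of 12 was past 0.5, the main uptake transporters Slc1a2 and Slc1a3 included, at 0.01 and 0.04. Of all astrocyte genes, 2.07% were higher and 3.48% lower.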

How the data were processed

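Each library's deposited files hold raw UMI counts per gene and barcode, made by the authors. Per the submitters' processing notes the genome was mm10 and the tools were R 4.0.3, Cell Ranger 9.0.0 and Seurat 4.0.0; the matrix headers name Cell Ranger 8.0.1. The deposited counts sum to 78380009 UMIs in the fluconazole library and 76891692 in the vehicle library.

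A barcode was kept if it had 500 or more genes and no more than 5% mitochondrial UMIs, and Scrublet's calls (517 fluconazole and 617 vehicle barcodes) were left out. Both libraries were clustered together (scanpy 1.11.5, Python 3.11.15; 2000 variable genes without the 33 genes, 30 components, Leiden resolution 1.0) into 38 clusters, of which 32 met a class's markers; the other 6 (847 fluconazole and 815 vehicle barcodes) were not used. Neuron classes were subclustered at a resolution of 0.5 (glutamatergic) or 0.3 (GABAergic and spiny), and mixed subclusters (252 fluconazole and 361 vehicle barcodes) were left out. Subclusters that met too few markers stayed in their main class. Those without a name held 36 fluconazole and 103 vehicle glutamatergic barcodes, and 16 fluconazole and 60 vehicle spiny barcodes. The naming rule and these resolutions were set with the clusters in view. UMIs were summed per class and library, with exact Poisson, conditional binomial and Clopper-Pearson intervals (scipy 1.17.1) at 95%. Levels and shares needed 50 barcodes per class over both libraries. Ratios between treatments needed 50 barcodes in each library, and genes with 100 UMIs over both. Genes were named in full when past a log2 ratio of 0.5, or when their highest class lay 4-fold above the median class. Alternatives were median-of-ratios scaling, doublets kept, at least 1000 genes, thinning to 1500 UMIs, equal cluster weights, leaving out the barcode richest in a gene, the 33 genes among the variable genes, a resolution of 0.5 throughout, mixed subclusters kept, 20 UMIs per gene, a log2 ratio of 1.0, and shares per kilobase. The calculations were tested on simulated data. The genes, lists and rules were chosen with earlier results of these data known. Some results of the list of other glutamate signalling genes are not reported here.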

Additional observations from a re-analysis of the deposited data

Results flagged for a closer look

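Some genes had opposite differences between treatments in 2 classes, each past a log2 ratio of 0.5 and with a counting interval that leaves out 0; with 1 library per treatment, none of these differences between classes was tested. Grik4 was higher in fluconazole GABAergic neurons, at 0.82, and lower in fluconazole spiny neurons, at -0.75, and both stayed past 0.5 under all 9 alternatives. The spiny class included an unnamed subcluster of 16 fluconazole and 60 vehicle barcodes, whose part in the spiny ratios was not tested.

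Grm8 was higher in GABAergic neurons, at 0.56, and in spiny neurons, at 0.97, and lower in microglia, at -0.68, and in endothelial cells, at -0.92. With mixed subclusters kept it was at 0.08 in GABAergic neurons and -0.0033 in spiny neurons, and after thinning it was at -0.43 in microglia. The GABAergic ratio was also below 0.5 with called doublets kept and with clusters weighted equally. The endothelial ratio stayed past 0.5 under all 9 alternatives.

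Gria4 was higher in astrocytes, at 0.81, and lower in endothelial cells, at -0.55. The opposite directions did not hold under every setting: with called doublets kept it was at -0.52 in astrocytes and -0.35 in endothelial cells, and after thinning at -0.11 in astrocytes and -0.26 in endothelial cells.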

How the results depend on the processing

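No paired analysis was possible because each treatment has 1 library. Settings that kept mixed subclusters, or used a resolution of 0.5 throughout, were chosen after seeing the data. At that resolution, part of the Sst cluster carried endothelial markers and counted as mixed. Of 58 ratios past 0.5 in classes and subclasses, 28 stayed past it under every alternative run for them. Keeping mixed subclusters cannot change classes that were not subclustered. A resolution of 0.5 throughout cannot change these either, nor glutamatergic clusters, whose main resolution was already 0.5. For these groups fewer settings can change a ratio. Causes were not tested.

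In glutamatergic neurons the count of lower genes was 0 after thinning and 2 with genes of at least 20 UMIs; at a log2 ratio of 1.0, 0 genes were higher and 0 lower. The median was 0.11 after thinning and 0.12 with mixed subclusters kept. The count of genes lower in GABAergic than in glutamatergic neurons was 7 when the 33 genes could be variable genes, and 2 with mixed subclusters kept.

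The Gria2 share of GABAergic neurons was 21.2% with fluconazole and 23.4% with vehicle with equal weights, 11.6% with fluconazole and 12.4% with vehicle per kilobase, and 21.7% with fluconazole and 23.1% with vehicle at a resolution of 0.5; it was 20.9% in fluconazole with the 33 genes among the variable genes and 23.3% in vehicle with mixed subclusters kept. In glutamatergic neurons it was 33.2% in fluconazole and 35.4% in vehicle with clusters weighted equally, and 19.8% with fluconazole and 21.4% with vehicle per kilobase of transcript. The Grin2a share of GABAergic neurons was 47.6% with fluconazole and 50.6% with vehicle with equal weights, 54.0% with fluconazole and 57.1% with vehicle per kilobase, and 39.4% with fluconazole and 41.9% with vehicle at a resolution of 0.5; it was 43.3% in fluconazole after thinning and 40.9% in vehicle with the 33 genes among the variable genes. In glutamatergic neurons it was 60.9% with fluconazole and 58.3% with vehicle per kilobase, 47.2% in fluconazole after thinning and 46.8% in vehicle with equal weights.

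Some ratios changed sign. After thinning, Grm3 in neuroblasts was at 0.24, Gria4 in astrocytes at -0.11, Grik3 in microglia at 0.40, Slc1a1 in microglia at 0.12, Pick1 in the cluster led by Rorb at -0.23 and Adarb1 in Sst interneurons at -0.0069. With called doublets kept, Gria4 in astrocytes was at -0.52 and Slc1a2 in Sst interneurons at -0.57, which was -0.13 at a resolution of 0.5. With the 33 genes among the variable genes, Grin3a in fibroblasts was at 1.52 and Shisa9 in Sst interneurons at -0.72. That Shisa9 ratio came from 8 fluconazole and 2 vehicle barcodes. Grm8 in spiny neurons was at -0.0033 with mixed subclusters kept.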
